A study of Mus musculus with 6 samples.

Results

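Teneurins and anoctamins are 2 families of membrane proteins, and their transcripts were followed here in fibroblast lines from mouse embryos that differed in Ezh2. The 9 genes, named as in the deposited tables, are the teneurins Odz1, Odz2, Odz3 and Odz4 and the anoctamins Ano1, Ano3, Ano4, Ano5 and Ano6. Found by gene symbol, they are 9 of 20723 named genes and hold 11 of the 23346 probe sets, since Ano3 and Ano6 have 2 each. They were chosen by measured values: Ano3 read higher in Ezh2 -/- cells of both Ink4a/Arf backgrounds, and Odz1 in Ink4a/Arf+/+ but not in Ink4a/Arf-/- cells. These values are therefore given as a description with no test, and the 8 probe sets of the other 7 genes are the ones tested.

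The cells were lines of the Ola129 strain, sampled while they grew exponentially in medium with serum and leukemia inhibitory factor. The 6 arrays fall into 4 groups by their titles: Ink4a/Arf-/- Ezh2 -/- (2 arrays), Ink4a/Arf-/- Ezh2 fx/fx (2 arrays), Ink4a/Arf+/+ Ezh2 -/- (1 array) and Ink4a/Arf+/+ Ezh2 fx/fx (1 array). Ezh2 is the histone methyltransferase of Polycomb repressive complex PRC2, and Ink4a/Arf (Cdkn2a) encodes a CDK inhibitor and an activator of p53. The series' design text speaks of esiRNA against Ezh2 instead of a genotype, and the titles were followed. The labels do not say how the alleles were deleted, whether a line is a clone, or whether replicates are separate cultures, so p-values measure only the spread between these arrays, which may be technical. Ezh2 itself read slightly lower on the arrays labelled Ezh2 -/-, with a log2 difference of -0.35 in Ink4a/Arf-/- (limma, adjusted p = 0.577) and -0.36 in Ink4a/Arf+/+ cells. Cdkn2a read 8.11 and 8.20 on the Ink4a/Arf-/- Ezh2 -/- arrays against 8.29 and 8.18 on the fx/fx arrays. Its log2 difference there was -0.078 (limma, adjusted p = 0.901). On the single Ink4a/Arf+/+ arrays it read 8.62 for Ezh2 -/- against 7.91 for fx/fx, a log2 difference of 0.71. Whether the probes of Ezh2 or Cdkn2a lie in the deleted parts is not stated by the labels, so these probe sets do not check the labels. The 10 fibroblast markers had mean log2 levels between 12.0 and 12.3 on every array. Values are log2 levels, so a difference of 1 is 2-fold. Array medians were 8.25 to 8.32 in the Ink4a/Arf-/- table and 7.50 to 7.51 in the Ink4a/Arf+/+ table, so comparisons stay within a table and within a probe set.

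Teneurins are large cell-surface proteins that cross the membrane as a single span and bind latrophilins, adhesion receptors on the facing cell. They are best known for guiding the wiring of the nervous system. Anoctamins (the TMEM16 family) cross the membrane many times and respond to calcium. Some members are chloride channels, and others are scramblases, which move phospholipids between the leaflets of the membrane. PRC2 marks the chromatin of silent developmental genes, commonly at CG-rich promoters.

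Sequence before annotated starts is shown for Ano3 and Odz1, the genes whose levels stand out. It is also shown for Odz4 and Ano6, a relative of each whose RefSeq window begins at the outermost annotated start. The lines give the 250 bases before the annotated start, 5′ to 3′ on the gene's strand, from RefSeq on GRCm38.p6, and capitals mark CG dinucleotides. All 9 genes matched by symbol, the teneurins under their current names Tenm1 to Tenm4. RefSeq lists the older symbols Odz1, Odz2 and Odz3 under more than 1 teneurin, and the gene with the same number was taken.
Ano3, first start, chr2:110950245-110950494, minus strand: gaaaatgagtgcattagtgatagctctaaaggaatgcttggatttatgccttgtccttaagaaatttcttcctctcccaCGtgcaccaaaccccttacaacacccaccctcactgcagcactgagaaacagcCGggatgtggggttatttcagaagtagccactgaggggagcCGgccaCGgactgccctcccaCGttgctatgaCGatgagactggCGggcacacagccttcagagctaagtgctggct
Ano3, second start, chr2:110840060-110840309, minus strand: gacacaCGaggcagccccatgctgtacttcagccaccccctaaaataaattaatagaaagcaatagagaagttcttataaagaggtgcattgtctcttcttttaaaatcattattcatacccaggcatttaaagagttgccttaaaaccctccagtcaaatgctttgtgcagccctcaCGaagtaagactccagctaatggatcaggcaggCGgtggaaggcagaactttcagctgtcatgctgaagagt
Odz1 (Tenm1), chrX:43274785-43275034, minus strand: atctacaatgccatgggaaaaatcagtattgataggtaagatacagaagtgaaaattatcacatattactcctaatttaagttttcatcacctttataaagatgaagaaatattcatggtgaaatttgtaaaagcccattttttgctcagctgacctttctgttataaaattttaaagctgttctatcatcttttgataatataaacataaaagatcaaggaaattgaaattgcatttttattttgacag
Odz4 (Tenm4), first start, chr7:96170994-96171243, plus strand: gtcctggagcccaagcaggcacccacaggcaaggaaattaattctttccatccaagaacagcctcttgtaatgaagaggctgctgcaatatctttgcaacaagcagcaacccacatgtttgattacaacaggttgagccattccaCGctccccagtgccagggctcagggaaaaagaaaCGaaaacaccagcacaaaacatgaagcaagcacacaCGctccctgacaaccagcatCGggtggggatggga
Ano6, chr15:95790593-95790842, plus strand: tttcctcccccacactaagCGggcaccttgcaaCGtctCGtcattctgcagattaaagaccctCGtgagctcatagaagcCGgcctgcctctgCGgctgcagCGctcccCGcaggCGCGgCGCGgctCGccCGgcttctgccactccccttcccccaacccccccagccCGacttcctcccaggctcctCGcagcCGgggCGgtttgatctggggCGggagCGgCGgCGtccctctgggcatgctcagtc

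The first Ano3 window holds 7 CG dinucleotides and the second 3, beside a median of 6 over all 32851 windows of this length. The Odz1 window holds 0, as do 7.87% of all windows. That window's start lies 154 kb inside the annotated span of the gene. The window is thus sequence from within the gene, and its count does not describe a promoter at an outer start. The second Ano3 start lies 110 kb inside its gene, while the first is 0.147 kb from the outermost end. Odz4 holds 4 CG dinucleotides at its outermost start and Ano6 holds 22, at the 85.9th percentile of all windows. The other member windows hold between 2 (Odz2 and Ano4) and 16 (Ano1). Of the 11 member windows 8 start over 1 kb inside the annotated gene, Ano1, Ano4, Ano5, Odz2 and Odz3 among them, so they may not be the promoters used in these cells. The Ano3 windows lie at the 55.3rd and 33.4th percentile of all windows in CG count. No binding or methylation was measured, so these counts describe the letters only.

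Ano3 belongs to the branch of the family that includes Ano4, and in humans its mutations are linked to a dystonia. Its probe set 10485745 read 6.70 and 6.76 without Ezh2 in Ink4a/Arf-/- cells, against 5.59 and 5.29 in the fx/fx cells. The single Ink4a/Arf+/+ arrays gave 6.71 for Ezh2 -/- against 5.02 for fx/fx. Both Ezh2 -/- replicates lay above both fx/fx replicates, and the replicates of a genotype lay closer together than the genotypes did. The mean was 6.73 ± 0.04 (SD, n = 2) against 5.44 ± 0.21 (SD, n = 2), a log2 difference of 1.30 or 2.45-fold. Taken array against array, the 4 possible differences ran from 1.12 to 1.47. The log2 difference was 1.69 in Ink4a/Arf+/+ cells, or 3.23-fold, between single arrays. By absolute size it was the 11th of the 23346 in Ink4a/Arf-/- cells and the 43rd in Ink4a/Arf+/+ cells.

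The second Ano3 probe set, 10485718, showed the same direction at a smaller size. It read 6.59 and 6.51 on the Ink4a/Arf-/- Ezh2 -/- arrays against 6.19 and 5.98 on the fx/fx arrays, and 6.04 against 5.14 in Ink4a/Arf+/+ cells. Its groups did not overlap either. The log2 differences were 0.46 and 0.90, smaller than those of the first probe set by 0.83 in Ink4a/Arf-/- and by 0.79 in Ink4a/Arf+/+ cells. The sources used here do not say which exons or transcripts the probe sets cover. Both lay among the dimmest 30% of probe sets by mean level, where 5 of the 11 member probe sets lay (also Odz1, Ano4 and Ano5). The 10485745 probe set ranked between the 8.63rd and 9.58th percentile of its array in fx/fx Ink4a/Arf-/- cells and between the 24.1st and 25.1st in Ezh2 -/- cells.

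Odz1 encodes teneurin-1, best known from neurons. In Ink4a/Arf-/- cells it read 5.77 and 5.75 without Ezh2 against 5.83 and 5.70 with it. The single Ink4a/Arf+/+ arrays gave 9.26 for Ezh2 -/- against 6.30 for fx/fx. The 4 Ink4a/Arf-/- arrays overlapped, and the Ink4a/Arf+/+ Ezh2 -/- array stood alone. The mean was 5.76 ± 0.01 (SD, n = 2) against 5.77 ± 0.09 (SD, n = 2) in Ink4a/Arf-/- cells, a log2 difference of -0.0052. Between the single Ink4a/Arf+/+ arrays the log2 difference was 2.97, or 7.82-fold, the 5th of all probe sets by absolute size. Odz1 ranked at the 34.4th percentile of the Ink4a/Arf+/+ fx/fx array and at the 72.1st of the Ezh2 -/- array. On the Ink4a/Arf-/- arrays it ranked between the 11.7th and 12.5th percentile. One array carries the high value, so it has no replicate check.

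**Figure D1:**
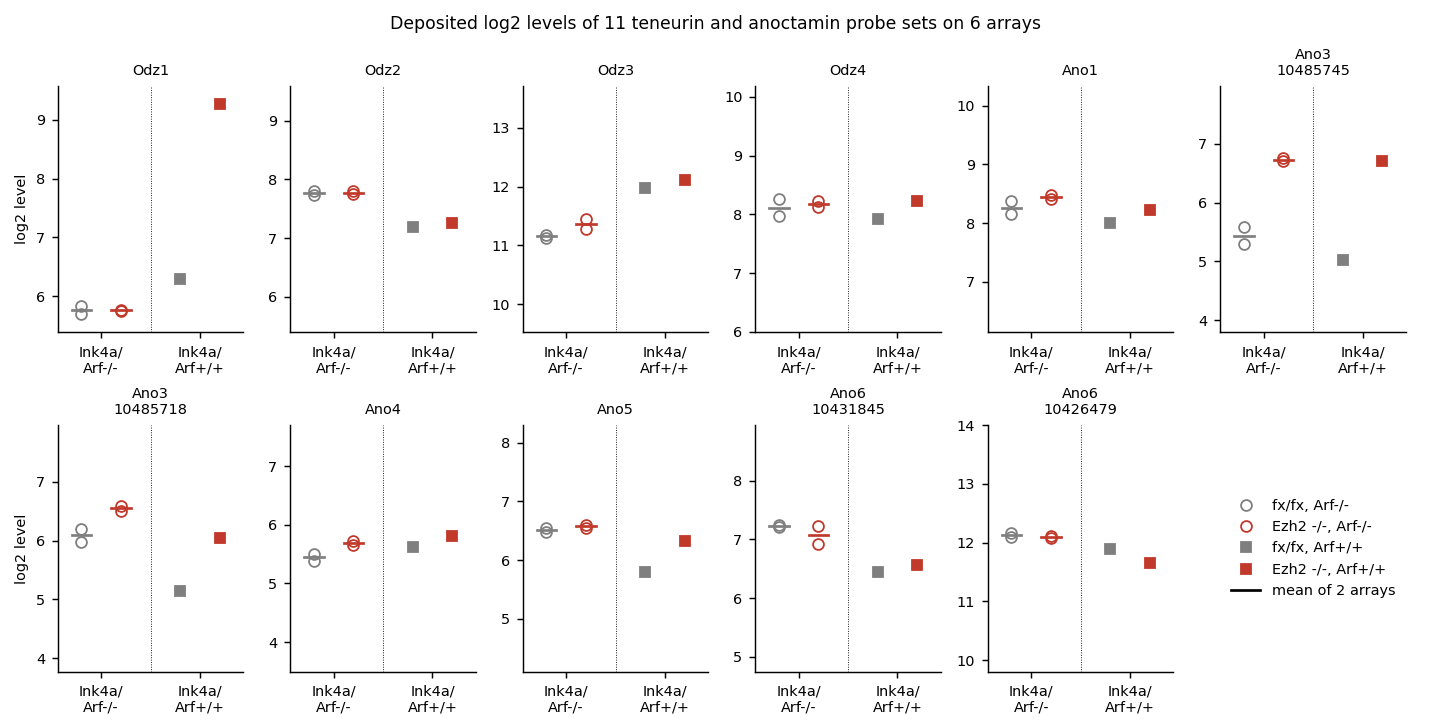
Deposited log2 levels (vertical axes, all with the same span) of the 11 member probe sets, by background and genotype, with open circles for single Ink4a/Arf-/- arrays, squares for single Ink4a/Arf+/+ arrays and bars for means of 2 arrays. Ano3 is higher on the Ezh2 -/- arrays of both backgrounds, while Odz1 stands out on the Ink4a/Arf+/+ Ezh2 -/- array at 9.26.

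The other teneurins differed by less than 0.35 on the log2 scale in both backgrounds, and none passed in Ink4a/Arf-/- cells. Odz3 read 11.45 and 11.28 against 11.13 and 11.18 in Ink4a/Arf-/- cells (Ezh2 -/- first, then fx/fx, the order kept from here on), and 12.11 against 11.98 in Ink4a/Arf+/+ cells. Both Ezh2 -/- replicates lay above both fx/fx replicates, but the log2 difference of 0.21 ± 0.09 (SE) did not pass (limma, adjusted p = 0.727). Odz3 guides axons of the visual system in mice. Odz4, which is needed for myelination in mice, read 8.12 and 8.22 against 8.26 and 7.96 in Ink4a/Arf-/- cells and 8.22 against 7.92 in Ink4a/Arf+/+ cells. Its Ink4a/Arf-/- groups overlapped, since the fx/fx replicates differed by 0.29, close to the difference of 0.30 between the single Ink4a/Arf+/+ arrays. Odz2, whose protein binds latrophilin-1 across synapses, read 7.80 and 7.74 against 7.80 and 7.73, and 7.26 against 7.18. Its log2 difference was 0.00070 in Ink4a/Arf-/- cells, with a 95% interval of -0.18 to 0.19 that lies well inside 2-fold in either direction. The interval of Odz4 was -0.22 to 0.35 and that of Odz3 -0.0087 to 0.43.

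Among the other anoctamins Ano4 and Ano1 read slightly higher without Ezh2. Ano4, the close relative of Ano3, read 5.72 and 5.66 against 5.51 and 5.38 in Ink4a/Arf-/- cells, and 5.81 against 5.61 in Ink4a/Arf+/+ cells. The groups did not overlap, and the log2 difference of 0.25 ± 0.08 (SE) had an unadjusted p of 0.0244 in limma and did not pass (adjusted p = 0.669). Ano1, the calcium-activated chloride channel of secretory epithelia and pacemaker cells of the gut, read 8.42 and 8.48 against 8.37 and 8.16, and 8.23 against 8.0. Its log2 difference was 0.18 ± 0.10 (SE) and did not pass either (limma, adjusted p = 0.763). Neither interval reached 2-fold, with upper ends of 0.45 for Ano4 and 0.42 for Ano1.

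Ano5 read higher without Ezh2 in both backgrounds, though only slightly in Ink4a/Arf-/- cells, and Ano6 showed no single direction. Ano5, whose loss in humans causes a muscular dystrophy, read 6.55 and 6.60 against 6.54 and 6.48 in Ink4a/Arf-/- cells, a log2 difference of 0.063 (limma, adjusted p = 0.918). It read 6.32 against 5.80 in Ink4a/Arf+/+ cells, a log2 difference of 0.52. These are single arrays, so the difference has no replicate check. Ano6, the scramblase that exposes phosphatidylserine on activated platelets, read 12.11 and 12.08 against 12.09 and 12.16 on probe set 10426479, and 11.65 against 11.89 in Ink4a/Arf+/+ cells. Its other probe set, 10431845, read 7.22 and 6.93 against 7.22 and 7.25, and 6.57 against 6.45. The probe sets of Ano6 thus pointed in opposite directions in Ink4a/Arf+/+ cells, with log2 differences of -0.24 and 0.12, and neither passed in Ink4a/Arf-/- cells (limma, adjusted p = 0.972 and 0.836).

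Counted over the 8 probe sets that did not choose the members, 0 passed in Ink4a/Arf-/- cells (limma, Benjamini-Hochberg over all probe sets), where 0% of all probe sets were called. At an unadjusted p below 0.05 there was 1, Ano4, beside 6.93% of all probe sets. Both Ezh2 -/- arrays lay above both fx/fx arrays in 4 of 8 (Odz3, Ano1, Ano4 and Ano5), beside 13% of all probe sets. The opposite order held in 0 of 8, beside 23.6%. The array median of fx/fx replicate 1, at 8.32, was above those of the other 3 Ink4a/Arf-/- arrays. Without that array the number above was 6 of 8, beside 41.6% of all probe sets, and 2 of 8 were below, beside 31.7%. The part of that array in the order was not tested. The median log2 difference of the 8 was 0.062, beside -0.027 over all probe sets.

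On the Ink4a/Arf+/+ arrays 7 of these 8 probe sets read higher on the Ezh2 -/- array, beside 50.5% of all probe sets, and 1 lower, beside 48.7%, with a median of 0.17 beside 0.00072. None of the 8 reached 2-fold. Over all 11 the number at least 2-fold higher was 2, Odz1 and the larger Ano3 probe set, which the choice of members fixed, beside 0.797% of all probe sets, and 0 were as far lower, beside 0.313%. In Ink4a/Arf-/- cells that Ano3 probe set was also past 2-fold, as were 0.0471% of all probe sets, and again this was fixed by the choice. With 1 array per genotype, these counts describe the arrays and not the genotype.

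The difference between the backgrounds was tested for the 8 probe sets with the assumption that the single arrays vary like the replicates. None passed (limma, 0 of 8 beside 0.407% of all probe sets). At an unadjusted p below 0.05 there was 1, beside 11.2%. That was Ano5, with a difference of 0.46 ± 0.13 (SE, limma, adjusted p = 0.282). For the other 7 the difference between backgrounds lay between -0.21 and 0.28. For Ano3, described only, the Ink4a/Arf+/+ value exceeded the other by 0.40 and 0.44 on its probe sets, and for Odz1 by 2.97.

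**Figure D2:**
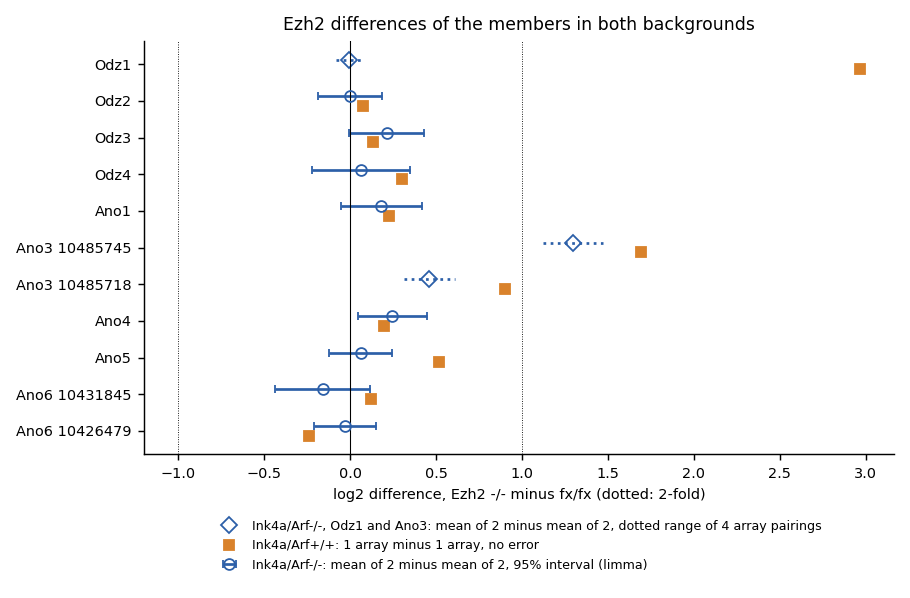
Log2 difference of Ezh2 -/- minus fx/fx (horizontal axis) for each member probe set, with circles and 95% limma intervals or, for Odz1 and Ano3, diamonds and the range of the array pairings in Ink4a/Arf-/- cells, and squares without error for the single Ink4a/Arf+/+ arrays. Odz1 at 2.97 and the larger Ano3 probe set at 1.69 lie past the dotted 2-fold line, and the intervals of the tested probe sets stay inside it.

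Patterns over the 6 arrays were compared by Euclidean distance of log2 levels centred within each table. Genes with only a clone, locus or predicted name, small RNAs, olfactory receptors and symbols beginning with Rn were left out. Of the rest, the genes nearest to Odz1 were Aldh1a1, Aldh1a7, Angptl1, Pappa2 and Csdc2. Aldh1a1, a retinaldehyde dehydrogenase, was the closest at a distance of 0.14, with log2 differences of -0.02 in Ink4a/Arf-/- and 3.03 in Ink4a/Arf+/+ cells. The other 4 lay at 0.45 to 0.63, with log2 differences of 2.13 to 2.61 in Ink4a/Arf+/+ cells. For the larger Ano3 probe set they were Cd80, which costimulates T cells, the chemokine Ccl17, the protease inhibitor Serpine2, Col10a1 and Fndc3c1, at distances of 0.45 to 0.70. Their log2 differences were 0.69 to 0.93 in Ink4a/Arf-/- and 1.42 to 1.58 in Ink4a/Arf+/+ cells. For the smaller Ano3 probe set they were Renbp, Kif1a, Tro, Ephx1 and Tcn2, at distances of 0.062 to 0.14. These distances over 6 arrays are a description, with no test.

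**Figure D3:**
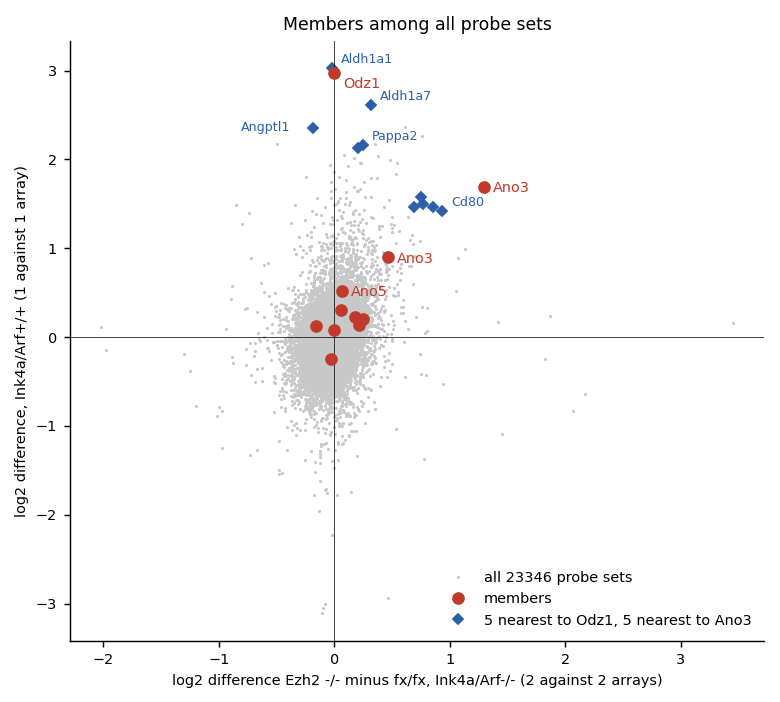
Log2 difference of Ezh2 -/- minus fx/fx in Ink4a/Arf-/- cells (horizontal axis) and Ink4a/Arf+/+ cells (vertical axis) for all 23346 probe sets in grey, the 11 member probe sets as red circles and the genes nearest in pattern as blue diamonds. Odz1 and Aldh1a1 lie near 0 on the horizontal axis and near 3.0 on the vertical one, and the members other than Odz1 and Ano3 lie within the grey cloud.

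Protein-coding genes beside Ano3 and Odz1 in the RefSeq gene order were also examined, with the same kinds of symbols left out. Muc15, a mucin gene that lies within Ano3, had log2 differences of -0.092 in Ink4a/Arf-/- and -0.056 in Ink4a/Arf+/+ cells. Of the flanking genes Slc5a12 had -0.057 and 0.22, A26c3 -0.057 and -0.10, and Lpcat4 -0.0084 and -0.27. Fibin, the second gene on the side of Slc5a12, had 0.20 (limma, adjusted p = 0.750) and 0.79. Beside Odz1, Sh2d1a had -0.18 and -0.11, and Dcaf12l2 had 0.015 and 0.23. None of these 7 genes passed in Ink4a/Arf-/- cells, and Fibin came nearest to the size seen for Ano3.

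Partners of the teneurins were followed as a list of 10 genes, taking the probe set with the highest mean level of each. None passed in Ink4a/Arf-/- cells (limma over all probe sets), and for 3 of 10 the unadjusted p was below 0.05, beside 6.53% of all genes. These were Flrt2 at 0.27 and Flrt3 at 0.20, which encode latrophilin-binding adhesion proteins, and the latrophilin Lphn3 at 0.24. The list's median was 0.044, beside -0.025 over all genes. On the Ink4a/Arf+/+ arrays 4 read higher and 6 lower, beside 51.5% and 47.7% of all genes, with a median of -0.029 beside 0.0062. Flrt2 read 12.09 and 12.00 against 11.79 and 11.77 in Ink4a/Arf-/- cells, but 9.93 against 10.51 in Ink4a/Arf+/+ cells, a log2 difference of -0.59. The latrophilin Lphn2 has 8 probe sets, and all 8 read lower on the Ink4a/Arf+/+ Ezh2 -/- array, by a median log2 difference of -0.20 within a range of -0.72 to -0.074. On the Ink4a/Arf-/- arrays 6 of the 8 read higher, with a median of 0.059. The Lphn2 probe set counted in the list, the one with the highest mean level, had -0.074 on the Ink4a/Arf+/+ arrays. The other latrophilins were near 0 there, with -0.035 and -0.012 for Lphn1 and -0.023 for Lphn3. Probe sets of 1 gene on the same arrays are not separate observations, and a relation to Odz1 was not tested.

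The 5 anoctamins that are no members (Ano2, Ano7, Ano8, Ano9 and Ano10) had log2 differences of -0.16 to 0.17 in Ink4a/Arf-/- and -0.15 to 0.22 in Ink4a/Arf+/+ cells, and 0 passed (limma; 0 also at an unadjusted p below 0.05). Ano10 had the largest value in each, at 0.17 and 0.22. Of the 11 related TMC and TMEM63 genes 0 passed (limma), and 1 of 11 had an unadjusted p below 0.05, Tmc7 at 0.27. Another list held 12 genes of the Best, Clca and Ttyh families, taken for a link to calcium-dependent chloride currents. Of these 0 passed (limma, with 0 at an unadjusted p below 0.05). In Ink4a/Arf-/- cells 4 read higher and 8 lower, close to the 39.5% and 60.5% of all genes. Clca2 reached 2-fold in Ink4a/Arf+/+ cells, with 6.66 against 5.63 and a log2 difference of 1.03, while Ttyh3 had -0.70 there. In Ink4a/Arf-/- cells these genes had 0.045 and -0.022.

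Scramblase and flippase genes, 16 in all, were followed because Ano6 acts as a scramblase. None passed in Ink4a/Arf-/- cells (limma), with 2 of 16 at an unadjusted p below 0.05, beside the same 6.53% of all genes. These were Plscr2, of the phospholipid scramblase family, at 0.40 ± 0.10 (SE, adjusted p = 0.577) and the flippase subunit gene Tmem30b at 0.21. Plscr2 read 8.81 and 8.74 against 8.27 and 8.47 in Ink4a/Arf-/- cells, and 10.26 against 9.55 in Ink4a/Arf+/+ cells, a log2 difference of 0.71. Its groups did not overlap and its direction was shared by both backgrounds. On the Ink4a/Arf+/+ arrays 12 of the 16 read higher, beside 51.5% of all genes, with a median of 0.17 beside 0.0062. Of 9 muscle membrane repair genes, a list chosen for Ano5, 0 passed (limma; 0 also at an unadjusted p below 0.05). The repair protein dysferlin (Dysf) had 0.011 and -0.36 and its relative Myof 0.054 and -0.39, beside 0.063 and 0.52 for Ano5.

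**Figure D4:**
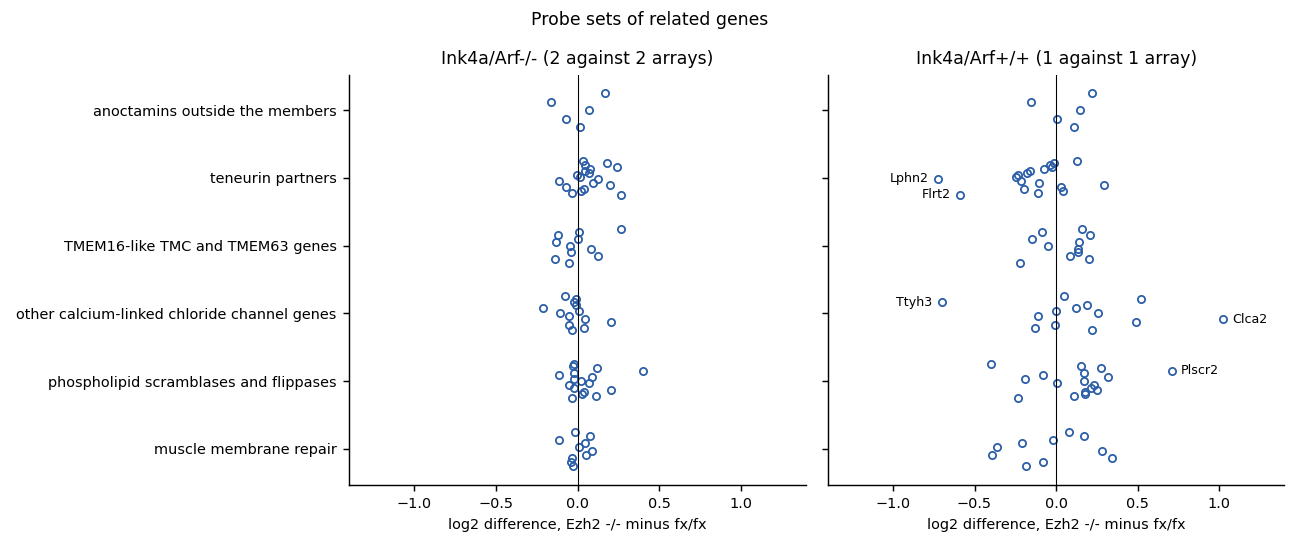
Log2 difference of Ezh2 -/- minus fx/fx (horizontal axes) for every probe set of 6 lists of related genes (rows), in Ink4a/Arf-/- cells on the left and Ink4a/Arf+/+ cells on the right, 1 circle per probe set with a vertical offset for legibility. Values on the left stay between -0.21 and 0.40, and Clca2 at 1.03 is the 1 probe set past 2-fold on the right.

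Markers of other cell types were read beside Odz1, since teneurin-1 is known from nervous tissue. The single markers named here had the largest differences of their lists on the Ink4a/Arf+/+ arrays. The glial list had 4 of 8 genes higher and 4 lower on the Ink4a/Arf+/+ Ezh2 -/- array, with log2 differences of 2.27 for Fabp7 and 0.93 for S100b. Its mean level was 6.996 there against 6.59 on the fx/fx counterpart, but its median log2 difference was 0.018, beside 0.0062 over all genes. In Ink4a/Arf-/- cells Fabp7 had 0.76 and S100b 0.065. The neuron list had 5 of 10 higher, 4 lower and 1 equal, with Stmn2 at -1.96, and a mean level of 6.44 against 6.63. Its median log2 difference was 0.015, so the lower mean was not shared by the list. The skeletal muscle list had 2 of 8 higher and 6 lower, with Des at -1.75. Of the 10 fibroblast markers 9 read lower, with Pdgfra at -1.41, and their mean level was 12.0 against 12.3. Their median log2 difference was -0.082. Of the remaining lists, 5 of 7 epithelial, 4 of 6 endothelial, 4 of 6 macrophage and 4 of 6 pluripotent cell markers read higher, beside 51.5% of all genes. Their medians were 0.12, 0.082, 0.081 and 0.11. Fabp7, Stmn2 and Des passed the test of the difference between backgrounds (limma, adjusted p = 0.0237, 0.0237 and 0.0235). Fabp7 did not pass once Ezh2 -/- replicate 2 was left out (limma, adjusted p = 0.0532). Their part in the difference of Odz1 was not tested. In these bulk samples a different number of cells of a type and a different amount of RNA per cell cannot be told apart.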

How the data were processed

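Transcript levels were measured on 6 Affymetrix whole-transcript arrays from 150 ng of total RNA, per the labels' protocols. The authors deposited log2 levels, log2 fold changes and p-values in 2 tables, 1 per Ink4a/Arf background. The sources used here do not describe the normalization. The submitters' processing notes name limma and give no role for it. The series matrix holds the same log2 levels as the deposited tables, and the deposited fold change is the mean of Ezh2 -/- minus that of fx/fx. For 26 probe sets the symbols differ between the tables, and those of the Ink4a/Arf-/- cells were used.

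All 23346 probe sets on 6 arrays entered 1 fit in limma 3.58.1 (R 4.3.3), with 1 mean per group, two-sided, with Benjamini-Hochberg adjustment and a threshold of 0.05. The Ink4a/Arf+/+ groups have 1 array each and add no spread. The fit was tested on simulated data, for the Ezh2 comparison in Ink4a/Arf-/- cells and for the difference between backgrounds. The members and lists were chosen with earlier results of these data known. A list counts the probe set with the highest mean level of each gene. Named are all members, up to 3 genes per list with the largest difference in each background, genes called, the 5 nearest patterns and the 2 flanking genes on each side, and a few others chosen after their values were seen. Tex13d and Tex13c1, beside Odz1, were not matched to a symbol. The 11 windows before annotated starts of the 9 members are from RefSeq (GRCm38.p6), and 8 of them start over 1 kb inside the gene. The number of arrays limits the precision.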

Additional observations from a re-analysis of the deposited data

Results flagged for a closer look

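Among the related genes, 6 differed with Ezh2 in opposite directions in the 2 backgrounds on every array, which is why they are given here. For Flrt2 the Ink4a/Arf+/+ log2 difference minus the Ink4a/Arf-/- one was -0.855, with 0.27 in Ink4a/Arf-/- and -0.59 in Ink4a/Arf+/+ cells. The same quantity was 0.376 for Anxa1, 0.127 for Best2, 0.331 for Clca3, -0.264 for Lphn3 and 0.340 for Tmc8. None passed limma's test of the difference, with adjusted p between 0.086 for Flrt2 and 0.801 for Best2, and the Ink4a/Arf+/+ side of each rests on 1 array per genotype.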

How the results depend on the processing

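No tested member probe set was called in Ink4a/Arf-/- cells, 0 of 8, under quantile normalization, median centring, the series matrix values, the filter on dim probe sets (which keeps 6 of the 8), a variance trend, the authors' deposited p-values or without any 1 array (0 to 0). With the replicate number as a block the count was also 0, and the log2 difference of the larger Ano3 probe set was 1.30. The numbers are not taken as a pairing, since the correlation of same-numbered deviations was 0.0264 and only 2 numbers exist. For the difference between backgrounds the count was 0 in each of these settings other than the block and the authors' p-values, which were not run for it, and leave-one-out gave 0 to 0. Leaving out the dimmest 30% of probe sets removed 5 of the 11 member probe sets, among them Odz1 and both of Ano3, so that 0 in place of 2 were at least 2-fold different in Ink4a/Arf+/+ cells and 2 in place of 4 were above in Ink4a/Arf-/- cells. No share of all probe sets was taken for that second count after the filter. Without Ezh2 -/- replicate 1 or 2 it was 4 of 8 each time, beside 20.4% and 25.9% of all probe sets. Without fx/fx replicate 1 or 2 it was 6 and 4 of 8, beside 41.6% and 20.0%. In the same order 2, 0, 2 and 2 of the 8 were below, beside 39.8%, 35.2%, 31.7% and 58.6%. The larger Ano3 probe set stayed between 1.15 and 1.44 without any 1 array, the smaller between 0.36 and 0.57, and Odz1 between -0.070 and 0.059. Differences near 0 changed sign without 1 array: the range was -0.063 to 0.0020 for Ano6 (probe set 10426479), -0.035 to 0.036 for Odz2 and -0.085 to 0.21 for Odz4, reversed without fx/fx replicate 2 and, for Odz2 at -0.025, without Ezh2 -/- replicate 1. The cause was not tested. The markers Stmn2 and Des passed the test between backgrounds in 10 of 10 settings (limma, adjusted p up to 0.0362 and 0.0353) and Fabp7 in 9 of 10. Of 121 alternative values of single members 113 kept their sign and 8 did not. Besides the 4 above, these were 4 values of Odz1 in Ink4a/Arf-/- cells, which has no test: 0.011 after median centring, 0.051 after quantile normalization, 0.0594 without fx/fx replicate 1 and 0.0044 with Ezh2 -/- replicate 2 left out. Over all probe sets the count called in Ink4a/Arf-/- cells was 0, but 4 without the dimmest 30%, 48 with a variance trend, 13 without fx/fx replicate 2 and 5 when Ezh2 -/- replicate 2 was dropped. For the difference between backgrounds it was 95, and 355 without the dimmest 30%, 228 after median centring, 268 after quantile normalization, 627 with a variance trend, 52 and 44 without Ezh2 -/- replicates 1 and 2, and 245 without fx/fx replicate 2.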
